A study of Mus musculus with 12 samples.

Results

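The genes described here are 10 feedback inhibitors of mitogen-activated protein kinase (MAPK) signalling: the dual-specificity phosphatases Dusp1, Dusp2, Dusp4, Dusp5, Dusp6 and Dusp10, the Sprouty genes Spry1 and Spry2, and the Sprouty-related genes Spred1 and Spred2. They were found by symbol, as every non-control probe that the scanner files give to one of these names, which gave 12 of 55681 probes. Spred1 had 3 probes and each other gene 1. A gene was tested where some group had a probe of it well above background on each of its 3 arrays, which held for 9 of the 10 members, among 18546 genes in all. Spry2 did not.

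The RNA came from regulatory T cells (Treg, the CD4 T cells that restrain immune responses) sorted from spleens of female mice on a C57BL/6 background. The 4 groups were CD83cKO cells (KO, a conditional knockout of Cd83) stimulated for 3 h through CD3 and CD28, CD83 WT cells (WT) after the same 3 h, KO cells without activation (0 h) and WT cells without activation, with 3 single-dye Agilent arrays each. KO mice were 10 weeks old except for replicate 3 at 3 h and replicate 3 at 0 h, which are labelled 21 weeks, and WT mice were 9 weeks old. The sources used here give no promoter or cell type for the deletion, and 6 mice served 12 arrays without a stated link between mouse and array, so p-values measure only the spread between these samples. All KO arrays shared 1 slide, WT arrays at 3 h lay on another and WT arrays at 0 h on another. Genotype and slide therefore cannot be told apart, and neither can slide and time within WT, whereas both KO times shared a slide. No group was kept for 3 h without stimulation, so stimulation cannot be told apart from the passing of 3 h itself.

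T cell receptor signals reach the kinases ERK, JNK and p38 through Ras and further kinase cascades. The inducible DUSP enzymes remove phosphate from both the threonine and the tyrosine of the MAPK activation loop, and many of their genes are themselves transcribed in response to MAPK activity, which closes a negative feedback loop. Sprouty and SPRED proteins act further upstream, where they limit the activation of Ras and Raf. In T cells several of these genes are known as early responses to receptor stimulation.

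The proximal promoters of Dusp1, Dusp5 and Dusp10 are shown because these 3 phosphatase genes were called higher after stimulation in WT and 2 of the windows hold a motif searched for. Of the 10 members 9 matched an entry in the RefSeq promoter table (mouse build GRCm38.p6) by symbol, and Dusp4 did not. Each run holds the 250 bases before the annotated start, 5′ to 3′ on the gene's strand, with matches to the cyclic AMP response element (CRE, TGACGTCA), its core (TGACG), the AP-1 site (TGANTCA), the CArG box of serum response factor and the kappaB site in capitals, searched on both strands. Dusp1 lies at chr17:26508473-26508722 (minus strand), Dusp5 at chr19:53528895-53529144 (plus strand) and Dusp10 at chr1:184034131-184034380 (plus strand).
Dusp1: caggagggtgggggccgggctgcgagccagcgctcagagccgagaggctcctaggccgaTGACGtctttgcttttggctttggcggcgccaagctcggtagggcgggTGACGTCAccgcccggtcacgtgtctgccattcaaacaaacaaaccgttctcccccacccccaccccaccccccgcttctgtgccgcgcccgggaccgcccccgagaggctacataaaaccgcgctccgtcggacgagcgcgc
Dusp5: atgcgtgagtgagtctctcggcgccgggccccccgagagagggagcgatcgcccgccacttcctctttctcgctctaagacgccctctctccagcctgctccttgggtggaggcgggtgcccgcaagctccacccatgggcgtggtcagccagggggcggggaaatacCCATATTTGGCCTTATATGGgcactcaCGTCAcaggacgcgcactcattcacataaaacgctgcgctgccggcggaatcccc
Dusp10: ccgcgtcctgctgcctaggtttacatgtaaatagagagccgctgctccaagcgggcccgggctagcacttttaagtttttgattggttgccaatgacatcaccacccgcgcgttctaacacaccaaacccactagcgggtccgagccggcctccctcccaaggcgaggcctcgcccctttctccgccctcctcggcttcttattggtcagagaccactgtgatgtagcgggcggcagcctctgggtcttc
The Dusp1 window holds a full CRE at -143 to -136 from the start, which also contains overlapping cores on both strands, and a separate core at -191 to -187. A full CRE was found in 508 of 32851 promoter windows of the same length (1.55%) and a core in 5836 (17.8%). The Dusp5 window holds adjoining CArG boxes at -82 to -73 and at -72 to -63, a motif found in 482 windows (1.47%), and a CRE core at -55 to -51. The Dusp10 window holds none of these letters, nor do those of Dusp2, Dusp6, Spry1, Spry2 and Spred1. Spred2 has a core at -51 to -47. Motifs of EGR, ETS and NFAT factors and the TATA motif were also searched, and the 3 printed windows hold none of them. An EGR motif was found in the Dusp2 window (4.7% of all windows) and NFAT motifs in those of Spred2 and Spry2 (20.4%). No member window had an ETS or TATA match. Matches of this kind describe the sequence and not binding.

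Levels below are log2 signals of a probe minus the 75th percentile of its array, taken over 19798 probes that stood well above background everywhere. A level of 0 is thus the brightness of that percentile, and since probes differ in brightness a level is compared only with the same probe on other arrays. Differences are means of 3 arrays minus means of 3 arrays, ± the standard error of the limma model. Adjusted p-values are Benjamini-Hochberg over the 18546 genes, with calls under 0.05. The model takes a single spread per gene over the 4 groups, so an error given for WT also carries the scatter of the KO arrays. All 9 tested members were well above background on all 12 arrays except Spred2, which was so on 11.

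The targeted gene Cd83 was lower on every KO array than on any WT array of the same time, with log2 differences of -2.50 ± 0.27 at 3 h and -1.88 ± 0.27 at 0 h. Cell markers set the pair of 21-week KO arrays apart. With the mean of WT at 0 h taken as 1, the summed signal of 10 Treg markers was 0.123 on the 21-week array at 3 h and 0.089 on that at 0 h, while 10-week KO arrays had 0.7 to 1.82. The sum of 8 plasma cell markers was 47.5 and 34 on the 21-week arrays, while 10-week KO arrays had 1.95 to 3.77. The 3 tested neutrophil markers summed to 46.2 and 97.8 on the 21-week arrays (0.419 to 3.69 on 10-week KO arrays), and the 9 tested B cell markers to 7.13 and 5.94 (0.603 to 2.77). T cell markers were at 0.165 and 0.292 on these arrays, against 0.609 to 0.843 on the other KO arrays. The 10-week KO arrays at 0 h also differed from WT at 0 h in some of these sums. Treg markers were at 0.7 to 0.702 there, against 0.944 to 1.08 in WT. T cell markers were at 0.748 to 0.843 against 0.939 to 1.07, and plasma cell markers at 2.86 to 2.92 against 0.911 to 1.07. At 3 h the Treg sum was 1.64 to 1.82 on 10-week KO arrays against 1.84 to 1.98 in WT. T cell and plasma cell sums overlapped there. Markers of monocytes and macrophages summed to 1.06 to 1.8 on KO arrays at 3 h against 0.172 to 0.269 on WT arrays at 3 h, and to 3.62 to 5.31 on KO arrays at 0 h against 0.714 to 1.29 on WT arrays at 0 h. Erythroid markers summed to 4.07 to 7.68 on KO arrays at 0 h against 0.416 to 1.69 on WT arrays at 0 h, and overlapped between the genotypes at 3 h (0.493 to 5.02 on KO arrays, 0.229 to 1.48 on WT arrays). Member values are therefore given with and without the 21-week arrays, and in such bulk samples fewer cells of a type and less RNA per cell cannot be told apart. Without the 21-week arrays the genotypes still differed in several of the marker sums given above.

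After 3 h of stimulation the phosphatase genes Dusp1, Dusp4 and Dusp5 had risen in both genotypes, and Dusp10 passed the test in WT. In KO 3 of the 9 tested members rose and 0 fell, where 7.38% of all genes were called higher and 9.79% lower. In WT 4 of the 9 rose and 0 fell, where 13.3% of all genes were called higher and 16.6% lower. The median difference of the 9 members was 1.20 in KO, where that of all genes was -0.04, and 0.66 in WT, where that of all genes was -0.14. Dusp2, Dusp6, Spry1, Spred1 and Spred2 passed the test in neither genotype with all 12 arrays. Every array at 3 h lay above every array at 0 h for 2 of the 9 members in KO, as for 10.9% of all genes, and for 6 of the 9 in WT, as for 29% of all genes. Over the same 3 h 9 of 12 monocyte and macrophage markers were called lower and 0 higher in each genotype. Their median difference was -2.20 in KO and -2.31 in WT, and the part of such marker changes in the member values was not tested.

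**Figure D1:**
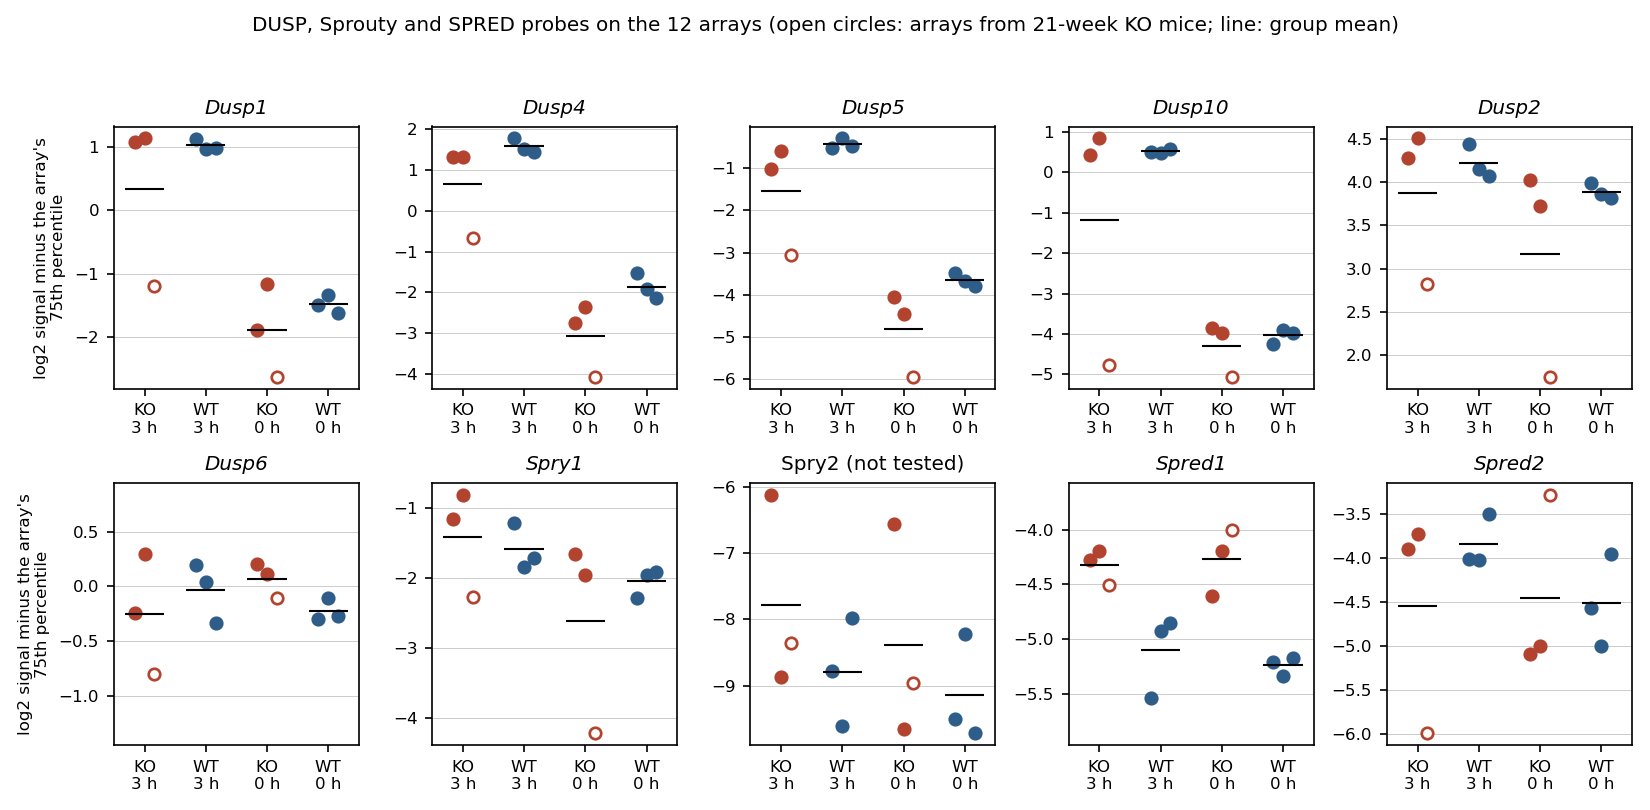
Log2 signal minus the 75th percentile of the array (y axis, a separate range in each panel) for 1 probe of each member on the 12 arrays, by group (x axis). Open circles are the arrays from 21-week KO mice and lines are group means of 3 arrays. The WT arrays at 3 h lie above the WT arrays at 0 h for Dusp1, Dusp4, Dusp5 and Dusp10, and the 21-week KO array at 3 h lies below the other KO arrays at 3 h in each of these panels.

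Dusp4 encodes a nuclear phosphatase that acts on ERK and JNK, and its probe lies at chr8:35882045-35882104 in the mm9 coordinates of the array design. On KO arrays it stood at 1.33, 1.33 and -0.68 at 3 h, against -2.75, -2.37 and -4.08 at 0 h, the last value of each set being the 21-week array. On WT arrays it stood at 1.78, 1.53 and 1.44 at 3 h, against -1.54, -1.92 and -2.14 at 0 h. The 2 times did not overlap in either genotype. Dusp4 rose by 3.72 ± 0.56 in KO (13.2-fold, adjusted p = 0.00286) and by 3.44 ± 0.56 in WT (10.9-fold, adjusted p = 0.00197).

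Dusp5 encodes a nuclear phosphatase selective for ERK, with its probe at chr19:53615682-53615741 (mm9). Its levels on KO arrays were -1.01, -0.58 and -3.06 at 3 h, against -4.06, -4.45 and -5.95 at 0 h. On WT arrays they were -0.53, -0.29 and -0.48 at 3 h, against -3.48, -3.68 and -3.79 at 0 h. Every array at 3 h lay above every array at 0 h of its genotype. The rise was 3.27 ± 0.62 in KO (9.66-fold, adjusted p = 0.00733) and 3.22 ± 0.62 in WT (9.29-fold, adjusted p = 0.00431). For Dusp4 and Dusp5 the calls in KO were lost in 1 of 24 settings, a fit to the 6 KO arrays alone (adjusted p = 0.0901 for Dusp4 and 0.127 for Dusp5).

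Dusp1 encodes the immediate early phosphatase of p38, JNK and ERK whose promoter holds the CRE printed above. The array design lists its probe with 11 bases, at chr17:26642526-26642536 (mm9). On KO arrays Dusp1 stood at 1.09, 1.14 and -1.18 at 3 h, against -1.89, -1.15 and -2.62 at 0 h. On WT arrays it stood at 1.13, 0.97 and 0.98 at 3 h, against -1.49, -1.34 and -1.62 at 0 h. The WT groups were fully separate, while the 21-week KO array at 3 h lay just below replicate 2 of KO at 0 h. Dusp1 rose by 2.24 ± 0.57 in KO (4.71-fold, adjusted p = 0.0249) and by 2.51 ± 0.57 in WT (5.69-fold, adjusted p = 0.00903). The KO call was lost when replicate 1 of KO at 3 h (adjusted p = 0.0863), replicate 2 of KO at 3 h (0.0894), replicate 1 of KO at 0 h (0.0608) or replicate 3 of KO at 0 h (0.0619) was left out. It was also lost in the fit to the 6 KO arrays alone (0.199) and with no shift between arrays (1.94, adjusted p = 0.112).

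Dusp10 encodes a phosphatase of JNK and p38, with its probe at chr1:185898608-185898667 (mm9). On KO arrays it stood at 0.42, 0.84 and -4.78 at 3 h, against -3.85, -3.98 and -5.06 at 0 h. On WT arrays it stood at 0.50, 0.47 and 0.59 at 3 h, against -4.25, -3.90 and -3.96 at 0 h. The 21-week KO array at 3 h thus lay among the arrays at 0 h, and the other 5 arrays at 3 h lay within a narrow band well above them. The difference was 3.13 ± 1.18 in KO (8.73-fold, adjusted p = 0.0964) and 4.56 ± 1.18 in WT (23.6-fold, adjusted p = 0.0163). The WT call was lost without replicate 1 of WT at 0 h (adjusted p = 0.0523) or without replicate 3 of WT at 3 h (0.0502). The WT error in these fits includes the scatter of the KO arrays. In a fit to the WT arrays alone the WT difference was 4.56 ± 0.11 (adjusted p = 2.05e-05). Dusp10 passed the test in KO when replicate 3 of KO at 3 h, the 21-week array, was left out (4.93, adjusted p = 3.45e-05).

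Without the 21-week arrays Dusp10 rose by 4.54 ± 0.17 in KO and by 4.56 ± 0.14 in WT (adjusted p = 5.59e-06 in KO and 8.05e-07 in WT). Between the 21-week KO arrays, 1 at each time, the difference of 3 h minus 0 h was 0.29 for Dusp10, where the means of the 10-week KO arrays differed by 4.54. The same 21-week difference was 3.40 for Dusp4, 2.89 for Dusp5 and 1.44 for Dusp1, beside 3.88, 3.46 and 2.63 between the 10-week means of these genes. Dusp10 was thus the member whose 21-week difference fell furthest below its 10-week difference among the 4 genes called in WT. With 1 array per time at 21 weeks these differences carry no test. The part that the low Treg and T cell and the high plasma cell, neutrophil and B cell marker signal of these arrays has in them was not tested.

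Leaving out the 21-week arrays, 7 of the 9 members rose in KO and 4 rose in WT, and 0 fell in either, while 20.2% of all genes were called higher in KO and 24.2% in WT. The additional members were Dusp10, Dusp2, Spry1 and Spred2. Dusp2, a nuclear phosphatase of ERK that is abundant in lymphocytes, has its probe at chr2:127163930-127163989 (mm9). It stood at 4.28, 4.50 and 2.82 on KO arrays at 3 h, against 4.02, 3.73 and 1.75 on KO arrays at 0 h. On WT arrays Dusp2 stood at 4.44, 4.16 and 4.07 at 3 h, against 3.99, 3.86 and 3.82 at 0 h. The 21-week array was the lowest at each KO time, and the WT arrays at 3 h lay narrowly above those at 0 h. With all arrays the difference was 0.70 ± 0.58 in KO (adjusted p = 0.439) and 0.33 ± 0.58 in WT (adjusted p = 0.71). Without the 21-week arrays it was 0.52 ± 0.16 in KO (1 of the 7 calls, adjusted p = 0.0325) and 0.33 ± 0.13 in WT (adjusted p = 0.066).

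Dusp6 encodes a cytoplasmic phosphatase selective for ERK, with its probe at chr10:98729985-98730044 (mm9). Its levels were -0.24, 0.30 and -0.80 on KO arrays at 3 h, against 0.21, 0.11 and -0.10 on KO arrays at 0 h. On WT arrays they were 0.19, 0.04 and -0.33 at 3 h, against -0.30, -0.11 and -0.27 at 0 h. The times overlapped in both genotypes. The difference was -0.32 ± 0.26 in KO (95% interval -0.90 to 0.26, adjusted p = 0.43) and 0.19 ± 0.26 in WT (-0.38 to 0.77, adjusted p = 0.618), and Dusp6 passed the test under none of the alternative settings in any comparison.

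Spry1, a Sprouty inhibitor of signalling to Ras and ERK that is induced in stimulated T cells, was measured by a probe at chr3:37543403-37543462 (mm9). It stood at -1.15, -0.81 and -2.28 on KO arrays at 3 h, against -1.66, -1.96 and -4.22 on KO arrays at 0 h. On WT arrays Spry1 stood at -1.22, -1.84 and -1.72 at 3 h, against -2.29, -1.96 and -1.91 at 0 h. The WT times did not overlap but lay close, and the 21-week KO array was the lowest at both times. The difference was 1.20 ± 0.61 in KO (adjusted p = 0.206) and 0.46 ± 0.61 in WT (adjusted p = 0.615). With 10-week KO arrays alone the KO difference was 0.83 ± 0.24 (adjusted p = 0.0244) and the WT difference 0.46 ± 0.20 (adjusted p = 0.0811).

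Spry2, the related inhibitor, was well above background on 2 of the 12 arrays, replicate 1 of KO at 3 h (-6.12) and replicate 1 of KO at 0 h (-6.56). Its other values ran from -8.87 to -8.35 on KO arrays at 3 h, -9.61 to -7.98 on WT arrays at 3 h, -9.65 to -8.96 on KO arrays at 0 h and -9.71 to -8.22 on WT arrays at 0 h. The probe at chr14:106291845-106291904 (mm9) therefore gave no measured change for this gene.

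The SPRED proteins sit at the membrane and recruit neurofibromin, which switches Ras off. For Spred2 (probe at chr11:19922416-19922475, mm9) the levels were -3.90, -3.73 and -5.99 on KO arrays at 3 h, against -5.08, -4.99 and -3.27 on KO arrays at 0 h. On WT arrays Spred2 stood at -4.00, -4.02 and -3.50 at 3 h, against -4.57, -4.99 and -3.95 at 0 h. The 21-week arrays ran opposite to the rest, with the lowest Spred2 level of all 12 arrays at 3 h, where the probe was not well above background, and the highest at 0 h. The KO difference was -0.09 ± 0.64 with all arrays (adjusted p = 0.946) and 1.23 ± 0.32 without the 21-week arrays (adjusted p = 0.0146). In WT it was 0.66 ± 0.64 with all arrays (adjusted p = 0.473).

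Spred1 was the member with the smallest differences between the times with all 12 arrays. Its brightest probe (chr2:117005906-117005965, mm9) stood at -4.28, -4.20 and -4.50 on KO arrays at 3 h, against -4.61, -4.19 and -4.00 on KO arrays at 0 h. On WT arrays it stood at -5.54, -4.93 and -4.85 at 3 h, against -5.21, -5.34 and -5.17 at 0 h. Both genotypes overlapped between the times, with a difference of -0.06 ± 0.22 in KO (95% interval -0.55 to 0.43) and 0.14 ± 0.22 in WT (-0.35 to 0.62). A dimmer Spred1 probe (chr2:117004952-117005011, mm9) gave 0.03 ± 0.23 in KO and 0.39 ± 0.23 in WT, and the remaining Spred1 probe (chr2:116998491-116998550, mm9) was well above background on 0 of 12 arrays.

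**Figure D2:**
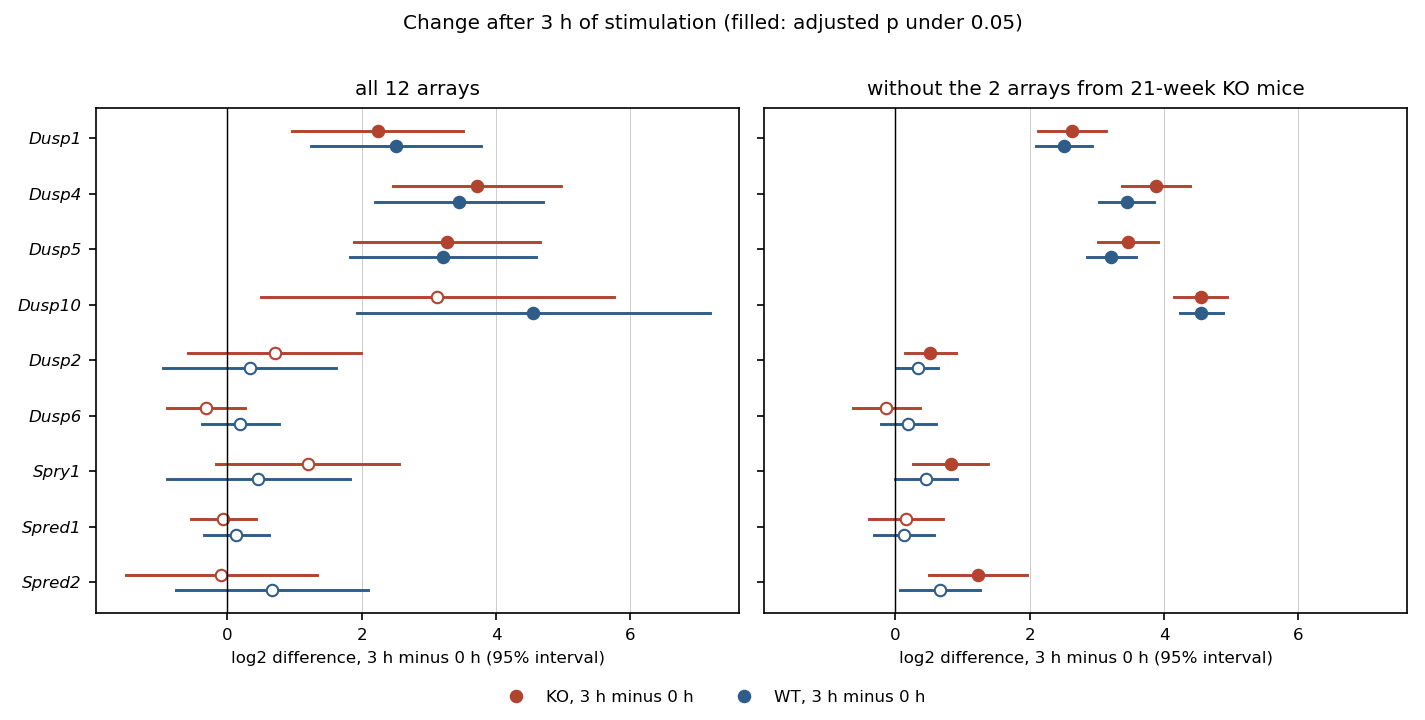
Log2 difference of 3 h minus 0 h (x axis, with its 95% interval) for the 9 tested members in KO and WT, with all 12 arrays on the left and without the 2 arrays from 21-week KO mice on the right. Filled points have an adjusted p under 0.05, and for Dusp10 the interval in KO runs from 0.50 to 5.75 on the left and from 4.15 to 4.94 on the right.

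Whether the response differed between genotypes was tested as the difference of the activation effects, KO minus WT. Among the 9 members 0 were called, and so were 0 of all 18546 genes (0% called, with 3.7% at an unadjusted p under 0.05 and 0 of the 9 members). With all arrays the intervals were wide. For Dusp4 the difference of effects was 0.28 (95% interval -1.49 to 2.05), for Dusp5 0.06 (-1.90 to 2.01), for Dusp1 -0.27 (-2.06 to 1.52) and for Dusp10 -1.43 (-5.14 to 2.28).

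Without the 21-week arrays the interval for Dusp10 was -0.52 to 0.50 around a difference of -0.01, and that for Dusp1 was -0.53 to 0.78 around 0.13. Dusp5 had 0.25 (-0.34 to 0.83) and Dusp4 had 0.44 (-0.21 to 1.09). For Dusp2 it was 0.19 (-0.30 to 0.68), for Spry1 0.37 (-0.36 to 1.09), for Spred2 0.56 (-0.38 to 1.51), for Spred1 0.03 (-0.68 to 0.73) and for Dusp6 -0.32 (-0.97 to 0.32). All 9 adjusted p-values of this comparison were 1 with all arrays and between 0.599 and 0.986 without the 21-week arrays, and an interval that spans 0 does not show that the genotypes responded alike.

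**Figure D3:**
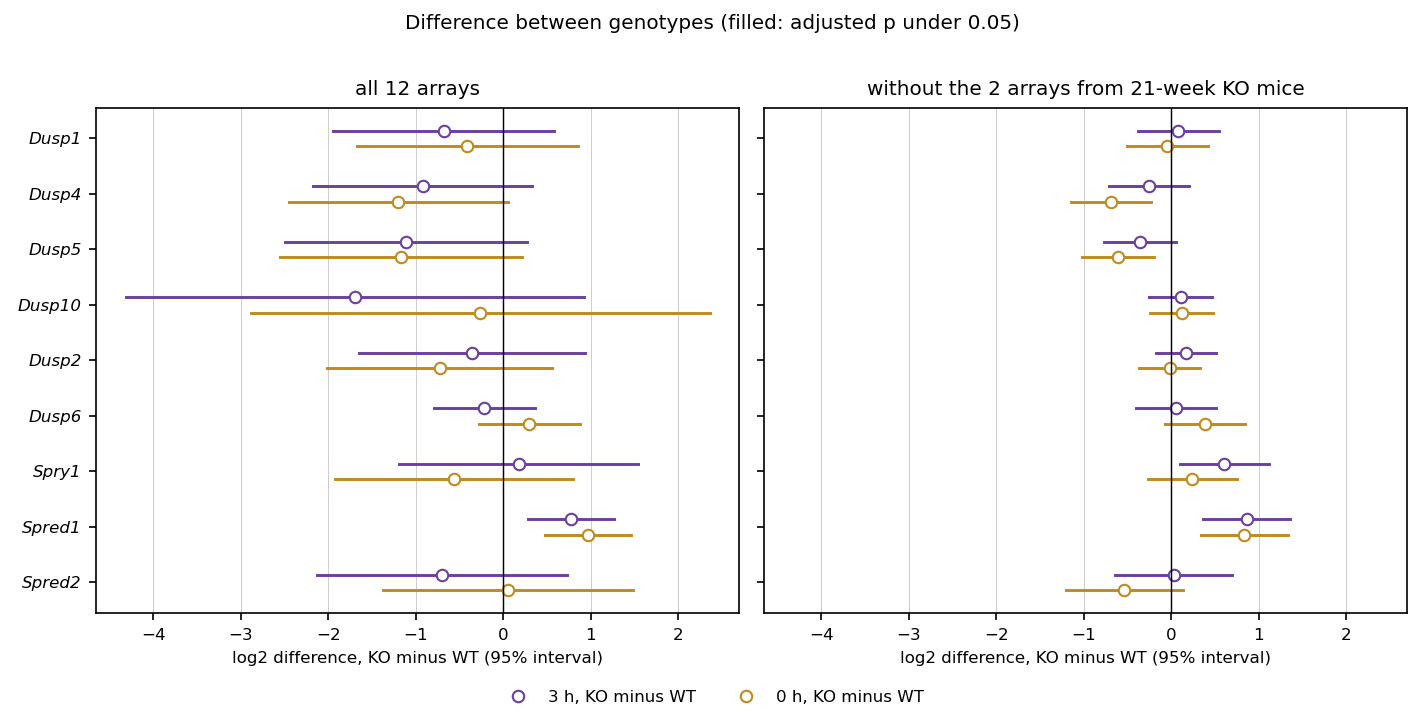
Log2 difference of KO minus WT (x axis, with its 95% interval) for the 9 tested members at 3 h and at 0 h, with all 12 arrays on the left and without the 2 arrays from 21-week KO mice on the right. All points are open, since none had an adjusted p under 0.05, and the Spred1 intervals lie above 0 at both times in both panels.

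Between the genotypes at the same time 0 of the 9 members were called at 3 h and 0 at 0 h, where 1.45% of all genes were called at 3 h and 2.08% at 0 h. Without the 21-week arrays it was again 0 of 9 at both times, beside 1.98% of all genes at 3 h and 6.63% at 0 h. The member nearest to the threshold was Spred1, whose levels on all 6 KO arrays (-4.61 to -4.00) lay above those on all 6 WT arrays (-5.54 to -4.85). It was higher in KO by 0.78 ± 0.22 at 3 h (1.71-fold, adjusted p = 0.176) and by 0.97 ± 0.22 at 0 h (1.96-fold, adjusted p = 0.0551). The dimmer Spred1 probe had levels of -4.87, -4.93 and -5.13 on KO arrays at 3 h, against -6.11, -5.59 and -5.38 on WT arrays at 3 h. At 0 h it had -5.11, -5.00 and -4.91 on KO arrays, against -6.25, -6.34 and -5.65 on WT arrays.

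Both Spred1 probes therefore separated the genotypes at each time, and the dimmer one differed by 0.72 ± 0.23 at 3 h and by 1.07 ± 0.23 at 0 h, KO minus WT. Averaged over both probes, Spred1 passed the test at 0 h (1.02, adjusted p = 0.0389). It also did so at 0 h in the fits without replicate 3 of KO at 3 h (adjusted p = 0.0337) and without replicate 1 of WT at 3 h (adjusted p = 0.0391), in 3 of 23 settings in all. Over these settings the Spred1 difference ran from 0.38 to 0.90 at 3 h and from 0.62 to 1.14 at 0 h. The lowest values came with no shift between arrays at 3 h and with normexp at 0 h. At 3 h the difference was also small with quantile normalization (0.42) and in the deposited table (0.40). Without the 21-week arrays the Spred1 difference was 0.87 ± 0.22 at 3 h (adjusted p = 0.11) and 0.84 ± 0.22 at 0 h (adjusted p = 0.0589). Markers of monocytes and macrophages were also higher on KO than on WT arrays at both times, as given above, and their part in the Spred1 values was not tested.

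Dusp4 and Dusp5 lay lower on every KO array than on any WT array of the same time. For Dusp4 the difference was -0.92 ± 0.56 at 3 h (adjusted p = 0.563) and -1.20 ± 0.56 at 0 h (adjusted p = 0.349), and for Dusp5 it was -1.12 ± 0.62 at 3 h (adjusted p = 0.542) and -1.17 ± 0.62 at 0 h (adjusted p = 0.408). Groups that do not overlap in this direction were seen for 7.39% of all genes at 3 h and 14.8% at 0 h. These differences were smaller when the 21-week arrays were left out. Dusp4 then differed by -0.25 (95% interval -0.71 to 0.21) at 3 h and -0.69 (-1.15 to -0.23, adjusted p = 0.0754) at 0 h, and Dusp5 by -0.36 (-0.77 to 0.05) at 3 h and -0.61 (-1.02 to -0.19, adjusted p = 0.0797) at 0 h.

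In the other direction, Spred1 at both times and Dusp6 at 0 h lay higher on every KO array than on any WT array, a separation seen for 11.8% of all genes at 3 h and 16.9% at 0 h. The Dusp6 difference at 0 h was 0.30 ± 0.26 (adjusted p = 0.622). For Dusp1, Dusp2, Dusp10, Spry1 and Spred2 the genotypes overlapped at both times, with differences from -1.69 (Dusp10) to 0.18 (Spry1) at 3 h and from -0.73 (Dusp2) to 0.05 (Spred2) at 0 h. In the fit without the 21-week arrays Spry1 was at 0.61 at 3 h (95% interval 0.10 to 1.12, adjusted p = 0.279) and Dusp10 at 0.11 (-0.25 to 0.47).

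Likeness between members over the 12 arrays was measured as the root mean square difference of log2 profiles, each centred on its own mean. Among the 9 tested members Dusp4 and Dusp5 were the closest pair at 0.292, followed by Dusp2 with Spry1 at 0.303, and Dusp10 with Spred1 were the farthest at 2.49. The genes nearest to Dusp4 were Tgif1 and Nr4a1, both at 0.375, and those nearest to Dusp5 were C2cd4a at 0.317 and Tgif1 at 0.338. Dusp10 was nearest to Vps37b at 0.363 and Tnfaip3 at 0.535. For Dusp1 the nearest named gene was Vgll4 at 0.201, for Dusp2 Socs3 at 0.193 and for Spry1 Abtb2 and Bach2, both at 0.297. These arrays share slides and the 21-week samples, so the likeness is a description of these 12 profiles.

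Among 8 further dual-specificity MAPK phosphatases 7 were tested, and after 3 h 3 rose and 1 fell in KO, against 2 that rose and 1 that fell in WT. For this and the following lists the shares of all genes are 7.38% higher and 9.79% lower in KO, and 13.3% higher and 16.6% lower in WT. Dusp16, which is known for its preference for JNK, rose by 2.18 ± 0.28 in KO and by 2.41 ± 0.28 in WT (adjusted p = 0.00141 in KO and 0.000422 in WT). Dusp8, another phosphatase of stress-activated kinases, rose by 2.50 ± 0.65 in KO (adjusted p = 0.0265), where 1 of 3 arrays at 0 h was well above background. In WT Dusp8 was at least 2.64-fold higher at 3 h (adjusted p = 0.00926), since 0 of 3 arrays at 0 h were well above background (measured means -5.93 at 3 h and -8.77 at 0 h). Dusp14, a small phosphatase that dampens T cell receptor signalling, rose by 2.50 ± 0.63 in KO (adjusted p = 0.0239) and was at 1.84 ± 0.63 in WT (adjusted p = 0.0504). Dusp7, a cytoplasmic ERK phosphatase related to Dusp6, fell by 1.39 ± 0.15 in KO and by 1.70 ± 0.15 in WT (adjusted p = 0.000644 in KO and 0.000143 in WT). The 3 further Sprouty and SPRED genes on the list had no tested probe.

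Of 16 other negative regulators of Ras and ERK signalling, 1 rose and 2 fell in KO, and 2 rose and 2 fell in WT. These counts lie near the shares of all genes and say nothing particular about the list. Ptpn22, a tyrosine phosphatase that restrains T cell receptor signalling, rose by 1.52 ± 0.21 in KO and 1.48 ± 0.21 in WT. Ptpn6 (SHP-1) fell by 1.38 ± 0.26 in KO and 2.09 ± 0.26 in WT. Dgkz is a kinase that removes the diacylglycerol needed for Ras activation. In KO Dgkz fell by 0.89 ± 0.27, just under the threshold (adjusted p = 0.0496) and with overlapping times. In WT it fell by 1.60 ± 0.27 (adjusted p = 0.00238). Among 17 tested genes of the Ras and ERK cascade 2 rose and 1 fell in KO, and 3 rose and 3 fell in WT. With all arrays these counts were again near the shares of all genes. Without the 21-week arrays 8 of the 17 rose and 3 fell in KO, and 8 rose and 3 fell in WT. Of all 18546 genes 3755 then rose and 4810 fell in KO, and 4482 rose and 5863 fell in WT. With all arrays Braf rose by 1.35 ± 0.37 in KO (adjusted p = 0.0337), where the times overlapped, and by 2.13 ± 0.37 in WT (adjusted p = 0.00267). The ERK substrate kinase Rps6ka1 fell by 0.86 ± 0.21 in KO and 1.53 ± 0.21 in WT. The JNK and p38 cascade had 5 rises and 1 fall in KO and 6 rises and 1 fall in WT among 16 tested genes, including Gadd45b, an activator of a kinase above p38 and JNK, at 3.29 ± 0.53 in KO and 4.01 ± 0.53 in WT.

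Transcription factors downstream of ERK include inducers of several DUSP genes. Their list, which also holds Ier3, whose product is not a transcription factor, had 19 tested genes. Among these there were 4 rises and 1 fall in KO and 7 rises, with Ier3 among them, and 3 falls in WT. Fosl2, an AP-1 subunit, rose by 4.88 ± 0.67 in KO and 6.67 ± 0.67 in WT, with adjusted p = 0.00191 in KO and 0.000231 in WT. Fosl1, another subunit, was at least 5.14-fold higher at 3 h in KO (adjusted p = 0.000677), with 0 of 3 arrays at 0 h well above background, and rose by 2.33 ± 0.49 in WT, where 1 of 3 arrays at 0 h was (adjusted p = 0.00657). For such bounds the dim group's arrays each take the probe's measured level or, if that is lower, the lowest level of any probe well above background there. Between the genotypes, with all arrays, 0 genes of these lists were called at 3 h, and at 0 h 1 was called, Ier3, higher in KO by 2.09 ± 0.36 (adjusted p = 0.0187). Without the 21-week arrays 2 of the 7 further phosphatases and 4 of the 19 genes of the last list were higher in KO at 0 h. At that time 1 of the 16 other negative regulators and 1 of the 17 Ras and ERK cascade genes were lower in KO. At 3 h 1 of the 19 was then higher in KO. Of all genes 6.63% were called at 0 h and 1.98% at 3 h in that fit. With all arrays the list medians after 3 h lay between 0.10 and 0.96 in KO, beside 1.20 for the DUSP, Sprouty and SPRED members, and between -0.12 and 0.94 in WT, beside 0.66 for these members.

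**Figure D4:**
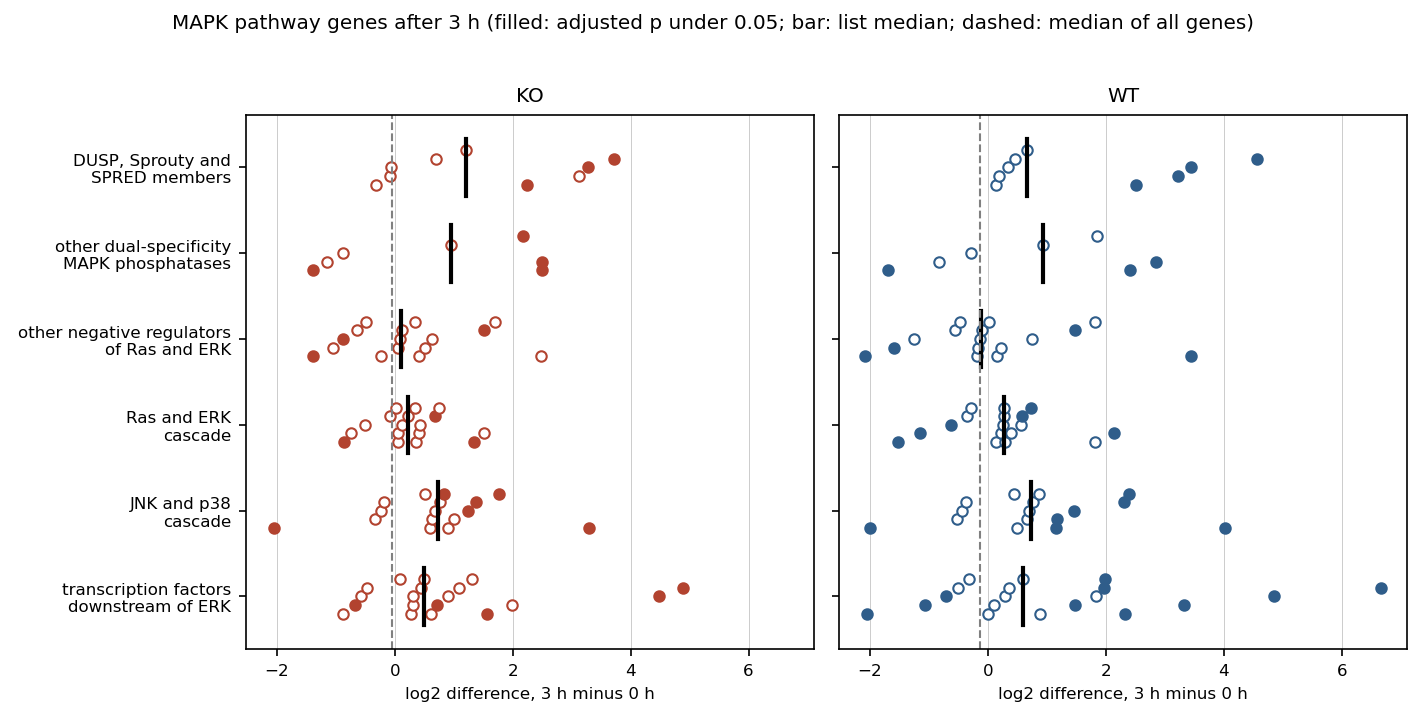
Log2 difference of 3 h minus 0 h (x axis) for each tested gene of the MAPK lists (rows) in KO on the left and WT on the right. Filled points have an adjusted p under 0.05, short bars are list medians and the dashed line is the median of all 18546 genes, at -0.04 in KO and -0.14 in WT. The members' row holds 3 filled points in KO and 4 in WT, all above 2.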

How the data were processed

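Cy3 signals of 12 mouse Agilent arrays were analysed. The scanner files deposited by the authors hold spot intensity values, read out by Agilent Feature Extraction. Its version is 10.7.3.1 per the file headers and 11 per the submitters' processing notes. These values are background-subtracted, per the file headers, and unscaled between arrays. The log2 values deposited by the authors, with a median of 3.89 on every array, were used as an alternative. How they were scaled is not stated, and the submitters' processing notes name Partek. Per the labels' protocols, 20 ng of RNA was amplified for sample 1 at 0 h and 40 ng for the others.

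Control spots and outlier flags were left out, spots of a probe were averaged, and log2 processed signals were shifted by the 75th percentile over probes well above background on all 12 arrays, because on average 46.4% of probes were well above background (42.9% to 54.6% per array). The 75th percentile itself ran from 187.8 to 374 intensity units, lowest on the 21-week arrays. The number of arrays limits the precision. Each gene was represented by its brightest tested probe. Differences were tested, two-sided, in R 4.3.3 by limma 3.58.1 (lmFit, then eBayes, on 4 group means, 8 residual degrees of freedom, Benjamini-Hochberg adjustment, threshold 0.05). Files were read with jsonlite 2.0.0 and data.table (1.17.8), and summaries made with Python 3.11.15, pandas 2.3.3, numpy 2.4.6 and matplotlib 3.10.9. In simulated arrays the test for 3 h against 0 h in WT recovered 65 of 100 genes changed by 2 on the log2 scale and 95 of 100 changed by 4, and that in KO recovered 64 and 96. The simulated noise was normal, with the same spread for a gene in every group and no outlying array. The 21-week arrays make the KO groups unlike that, so these counts do not give the recovery in the real arrays.

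All member probes were named, and of the other MAPK lists and markers up to 4 called genes with the largest moderated statistic per comparison could be named, or up to 2 with the largest difference where none was called, besides Cd83 and the 2 nearest profiles of each member. The members and lists were chosen with earlier results of these data known. Alternatives were other scalings, normexp with an offset of 50, the deposited table, other probe filters, both probe rules, an age term, the arrays of the compared groups alone, the slide as a block and each array left out.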

Additional observations from a re-analysis of the deposited data

How the results depend on the processing

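The 9 tested members gave 45 differences, each recomputed under up to 25 alternative settings. Of 1075 values, 1039 counted as unchanged, 10 passed the threshold newly, 10 lost it, 15 moved and 1 reversed. A called value counted as unchanged where it stayed called in the same direction, whatever its size. Where neither value was called, a change within the pooled spread of the arrays counted as unchanged and a larger one as moved. The values with the slide as a block are among the 1039. For a comparison of 2 groups several other alternatives leave the difference the same by construction. Among them are leaving out an array of a group not compared and fitting the compared groups alone. Each tested probe taken as a separate feature is another. In these only the error and the call could change, so the count of 1039 overstates how far the values were put to the test. The reversal was Spred2 for 3 h against 0 h in KO, at 1.23 (adjusted p = 0.0146) without the 21-week arrays. The count of members called for 3 h against 0 h in KO, 3 with all arrays, was 7 without the 21-week arrays. It was 6 with an age term and 2 with no shift between arrays. In a fit to the 6 KO arrays alone it was 0, and 104 of all genes were called. That fit had the same differences but took its spread from the KO arrays only. Its standard errors were 0.715 for Dusp4, 0.802 for Dusp5 and 0.737 for Dusp1, beside 0.562, 0.621 and 0.568 with all arrays. The cause of the other shifts in this count was not tested. Leaving out 1 array at a time gave 2 to 4 in KO, 3 to 4 in WT, 0 to 1 for KO against WT at 0 h, 0 to 0 for KO against WT at 3 h and 0 to 0 for the difference of effects. For KO against WT at 0 h the mean of the tested probes gave 1 (Spred1).

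Calls over all genes moved more. In KO 3 h against 0 h called 3183 genes with all arrays, 8565 without the 21-week arrays, 7135 with an age term and 1915 with no filter on dim probes. In WT it called 5544 with all arrays, 10345 without the 21-week arrays, 9320 with an age term, 11263 in the WT arrays alone and 2821 with no shift between arrays. KO against WT called 268 genes at 3 h, 5075 with no filter, 118 with no shift and 0 in the arrays at 3 h alone, and 385 at 0 h, 1229 without the 21-week arrays, 760 with an age term and 220 with only probes well above background on every array. The last filter gave 158 at 3 h. Leaving out 1 array at a time gave 1800 to 6891 genes in KO and 3629 to 7649 in WT for 3 h against 0 h, 130 to 562 for KO against WT at 3 h and 81 to 1095 at 0 h. The difference of effects, with 0 genes called, had at most 4 under any alternative. With no shift between arrays the median of all genes moved to -0.34 for 3 h against 0 h in KO, from -0.04 with the shift, and to -0.36 for KO against WT at 3 h. Dusp1, Dusp4, Dusp5 and Dusp10 kept a positive difference of 3 h minus 0 h in both genotypes under every alternative run, and Spred1 kept a positive difference of KO minus WT at both times.

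No paired analysis was possible because replicate numbers were given in accession order and the labels name no mouse for an array. Slide as a fixed block could be fitted only for 3 h against 0 h in KO, whose arrays share 1 slide, so that it gives the same fit by construction and checks nothing. The limits are 3 arrays a group, slides that hold 1 genotype each, 2 KO arrays at 21 weeks, and dim Spry2 and Spred2 probes close to background. The tested Spred1 probes were well above background on every array but about as dim as that of Spred2.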
